A study of Mus musculus with 10 samples.

Results

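Pdcd1 encodes PD-1, an inhibitory receptor of activated T cells, and it was examined together with its 2 ligands and 7 other inhibitory and co-stimulatory receptors in mouse skin inflamed by imiquimod. The 10 genes were listed by name: Pdcd1, the ligand genes Cd274 (PD-L1) and Pdcd1lg2 (PD-L2), the inhibitory receptors Ctla4, Lag3, Tigit and Havcr2 (TIM-3), and the co-stimulatory receptors Icos, Tnfrsf9 (4-1BB) and Tnfrsf4 (OX40). All 10 were among the 17016 gene symbols of the deposited table. The list was chosen by the values of Pdcd1, which was lower with quinpirole in these same libraries, so its difference is given below as a description with no test. The other 9 were added for their function, and their values come from the same comparison.

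The quinpirole group held 5 samples of whole skin from female BALB/c mice aged 10 to 11 weeks, given 5 injections into the peritoneum of quinpirole, which activates the dopamine receptor DRD2. The vehicle group held 5 samples from mice of the same strain, sex and age, given vehicle in place of quinpirole. The shaved backs of both groups were treated with 5% imiquimod cream daily over 5 days. Imiquimod activates the RNA sensor TLR7 and causes skin inflammation that resembles psoriasis. Skin without imiquimod was not analysed here. Whether each numbered sample was a different mouse is not said in the labels, and the p-values cover only sample-to-sample spread, which may be technical.

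T cells need a signal through the T cell receptor and a second one through co-stimulatory receptors such as CD28, ICOS, 4-1BB and OX40. Inhibitory receptors appear on T cells after activation and restrain it. PD-1 does so through phosphatases that its cytoplasmic tail recruits when PD-L1 or PD-L2 binds, CTLA-4 by taking CD80 and CD86 from CD28, TIGIT by taking PVR from CD226, and LAG-3 by binding MHC class II. In skin, PD-L1 can be made by keratinocytes and myeloid cells and is induced by interferon, and regulatory T cells carry much of the CTLA-4, ICOS and OX40. Treatment of people with antibodies that block PD-1 can bring on or worsen psoriasis.

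The promoters of 6 of these genes are shown because Pdcd1 was the gene that set the list and the other 5 ran closely together over the 10 libraries. Each is the 250 bases before a transcription start in RefSeq on GRCm38.p6, read 5′ to 3′ on the gene's strand. For Tnfrsf9 the second of 2 listed starts is given. Icos also ran with these genes, at a Pearson r of 0.871 with Havcr2, but no promoter of Icos was matched.
Pdcd1, chr1:94052554-94052803, minus strand: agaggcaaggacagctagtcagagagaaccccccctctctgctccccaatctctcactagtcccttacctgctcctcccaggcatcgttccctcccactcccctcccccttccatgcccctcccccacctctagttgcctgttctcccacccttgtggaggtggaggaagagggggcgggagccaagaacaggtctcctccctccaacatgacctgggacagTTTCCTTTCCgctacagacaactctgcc
Cd274, chr19:29367188-29367437, plus strand: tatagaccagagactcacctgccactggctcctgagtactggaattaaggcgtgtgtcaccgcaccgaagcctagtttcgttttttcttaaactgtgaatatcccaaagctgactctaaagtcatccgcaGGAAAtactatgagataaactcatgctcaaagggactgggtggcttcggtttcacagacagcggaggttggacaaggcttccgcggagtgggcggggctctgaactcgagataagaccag
Pdcd1lg2, chr19:29410669-29410918, plus strand: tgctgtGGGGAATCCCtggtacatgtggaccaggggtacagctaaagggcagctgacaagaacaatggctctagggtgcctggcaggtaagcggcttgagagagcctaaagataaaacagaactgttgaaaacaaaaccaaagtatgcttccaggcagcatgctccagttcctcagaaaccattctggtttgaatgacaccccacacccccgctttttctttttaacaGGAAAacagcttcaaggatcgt
Ctla4, chr1:60908775-60909024, plus strand: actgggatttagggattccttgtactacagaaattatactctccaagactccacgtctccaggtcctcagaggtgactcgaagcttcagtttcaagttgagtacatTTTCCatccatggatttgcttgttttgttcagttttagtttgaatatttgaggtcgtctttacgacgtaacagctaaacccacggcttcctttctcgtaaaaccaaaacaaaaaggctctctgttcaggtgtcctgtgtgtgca
Havcr2, chr11:46454681-46454930, plus strand: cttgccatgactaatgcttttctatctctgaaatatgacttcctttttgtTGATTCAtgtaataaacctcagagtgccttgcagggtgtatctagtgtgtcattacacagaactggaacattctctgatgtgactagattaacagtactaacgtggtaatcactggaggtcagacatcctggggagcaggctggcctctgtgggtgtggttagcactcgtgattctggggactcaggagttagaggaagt
Tnfrsf9, chr4:150927749-150927998, plus strand: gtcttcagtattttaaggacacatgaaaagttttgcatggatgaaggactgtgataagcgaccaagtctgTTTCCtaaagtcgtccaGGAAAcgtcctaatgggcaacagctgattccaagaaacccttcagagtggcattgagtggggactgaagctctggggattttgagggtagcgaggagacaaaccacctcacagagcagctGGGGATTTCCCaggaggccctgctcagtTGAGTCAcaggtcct
Capitals mark matches on either strand to letters bound by factors of T cell activation. These were GGAAA, the core that NFAT binds, TGANTCA for AP-1, GAAA and GAAA with NN between them for interferon regulatory factors, and GGG and CC with NNNNN between them for NF-kB. Of 32851 promoter windows of this length, 55.6% held the NFAT core, 6.75% the AP-1 letters, 2.98% the interferon letters and 45.8% the NF-kB letters, so the first and last are common. The Pdcd1 window held 2 NFAT cores next to each other, between 28 and 19 bases before the start, both on the strand opposite to the gene. The Cd274 and Ctla4 windows held 1 NFAT core each. The Pdcd1lg2 window held 1 NFAT core and an NF-kB match that reads on both strands at one place. The Tnfrsf9 window shown held 3 NFAT cores, an AP-1 match and overlapping NF-kB matches, 1 of the NFAT cores lying inside an NF-kB match. The window of the other listed Tnfrsf9 start, not shown, held 2 NFAT cores and no AP-1 or NF-kB match. Which start is used in skin is not known here. The Havcr2 window held an AP-1 match and no NFAT core. These are matches of letters and were not tested for binding.

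Reads recovered from the deposited values ranged from 6763367 to 8361877 per library, and 1 read was worth 0.119 to 0.146 normalised CPM, the unit of all levels here, which scales a read by library depth. The basal keratinocyte gene Krt5, a marker of skin, averaged 3039 ± 441 CPM with quinpirole and 3103 ± 472 CPM with vehicle, and the leukocyte gene Ptprc averaged 115 ± 28.6 CPM with quinpirole and 117 ± 38.5 CPM with vehicle (SD, n = 5 each). The libraries differed widely in hair shaft RNA. The mean log2 level of 24 hair shaft genes ran from 1.11 to 6.84 in quinpirole libraries and from 0.952 to 6.89 in vehicle libraries. It was highest in quinpirole replicate 1 and in vehicle replicates 2 and 3. Testing was limited to genes with 1 CPM or more in 5 or more libraries, 14548 in all, among them 8 of the 10 genes. Lag3 and Tigit were below this limit.

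**Figure D1:**
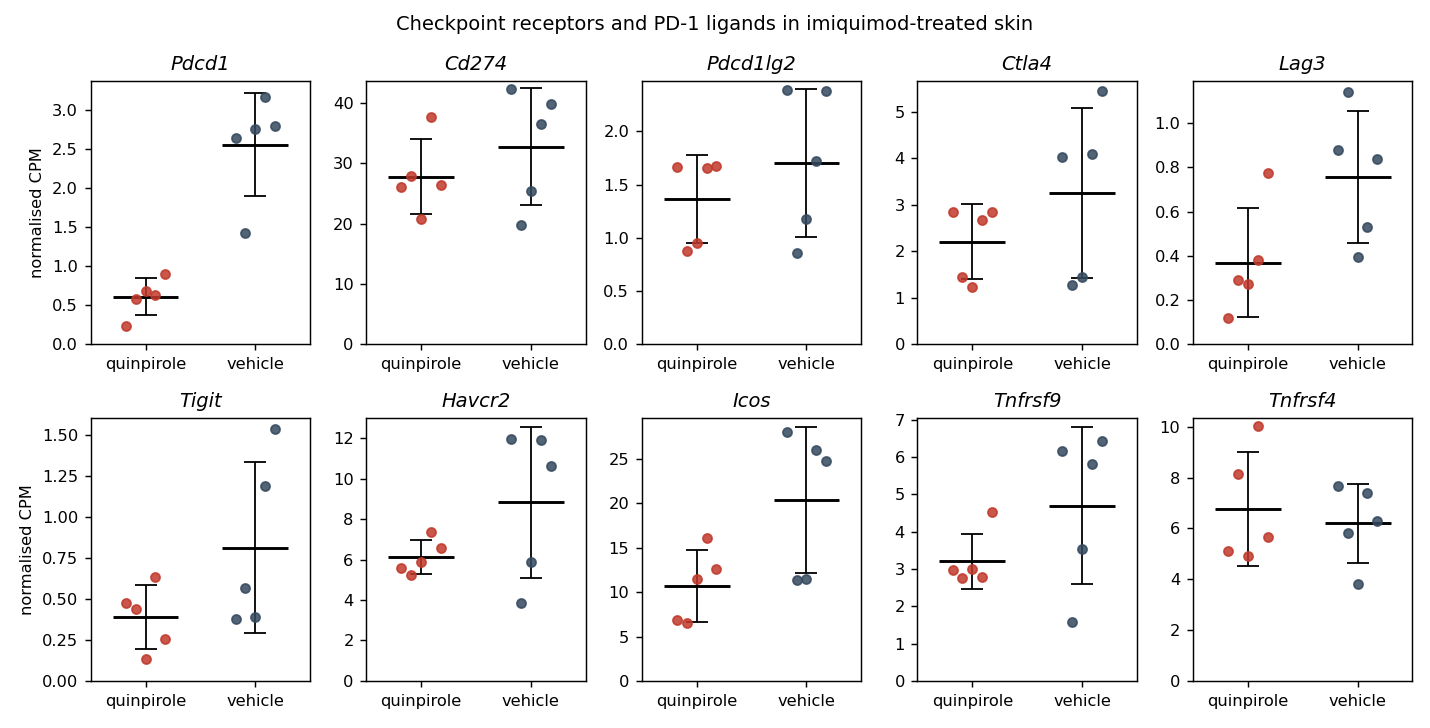
Normalised CPM (vertical axes, linear, from 0) of the 10 genes in 5 quinpirole and 5 vehicle libraries. Points are libraries in order of replicate number, horizontal lines are means and bars are SD. The groups do not overlap for Pdcd1, at 0.238 to 0.904 CPM with quinpirole and 1.42 to 3.17 CPM with vehicle, and overlap for each of the other 9 genes.

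Pdcd1 was lower in every quinpirole library than in any vehicle library. It had 0.238, 0.583, 0.681, 0.636 and 0.904 CPM in quinpirole replicates 1 to 5, from 2, 4, 5, 5 and 7 reads, and 2.64, 1.42, 2.75, 3.17 and 2.80 CPM in vehicle replicates 1 to 5, from 21, 10, 21, 24 and 20 reads. The means were 0.608 ± 0.241 CPM with quinpirole and 2.56 ± 0.664 CPM with vehicle (SD, n = 5 each), so the quinpirole mean was 23.8% of that of vehicle. These were the values that put Pdcd1 at the head of the list. Of the genes tested, 0.859% had every quinpirole library below every vehicle library. Pdcd1 reached 1 CPM in 0 of 5 quinpirole libraries and 5 of 5 vehicle libraries, and was the 1 gene of 14548 that passed the filter through all vehicle libraries and no quinpirole library. The size of the difference depends on how low values are handled. The log2 fold change was -1.13 after 1 was added to each CPM, -1.95 with 0.1 added in place of 1, and -2.06 by edgeR on the recovered reads. On mm10, Pdcd1 spans chr1:94038305-94052553 (minus strand).

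In whole tissue, fewer T cells and less RNA of a gene per T cell cannot be told apart. The 4 CD3 genes, which encode the signalling chains of the T cell receptor, were therefore set beside Pdcd1, a choice made after their values were seen. Their summed level was 15.2 to 41.8 CPM in quinpirole libraries, with a median of 20.5 CPM. In vehicle libraries it was 15.1 to 30.8 CPM, with a median of 30.1 CPM. Quinpirole replicate 4, at 41.8 CPM, lay above all vehicle libraries, and the other quinpirole libraries lay below vehicle replicates 1, 4 and 5. Single CD3 genes had log2 fold changes of -0.35 for Cd3d, 0.14 for Cd3e, -0.20 for Cd3g and 0.00 for Cd247, and none was called. The median of Cd3e was 5.59 CPM with quinpirole and 6.87 CPM with vehicle, and its highest quinpirole library had 17.8 CPM. Cd4 and Cd8a, which mark helper and cytotoxic T cells, had log2 fold changes of 0.20 and 0.02 and were not called. Cd8b1, which encodes the other CD8 chain, did not reach the filter and had 8 reads in all quinpirole libraries together and 16 in all vehicle libraries together. Its quinpirole mean was 50.2% of that of vehicle. The groups did not overlap, but how often genes with so few reads do so was not computed. Cd8b1 was named after its values were seen. Per 100 CD3 reads there were 1.56, 2.84, 3.60, 1.52 and 3.98 Pdcd1 reads in quinpirole replicates 1 to 5, and 8.57, 8.40, 18.3, 10.3 and 9.30 in vehicle replicates 1 to 5. The ranges again did not overlap, as was so in this direction for 0.220% of tested genes. These ratios rescale the values that put Pdcd1 on the list, so they are a description and no test. With the mean log2 level of the CD3 genes as a covariate the log2 fold change of Pdcd1 was -1.09, with that of the hair shaft genes -1.21.

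**Figure D2:**
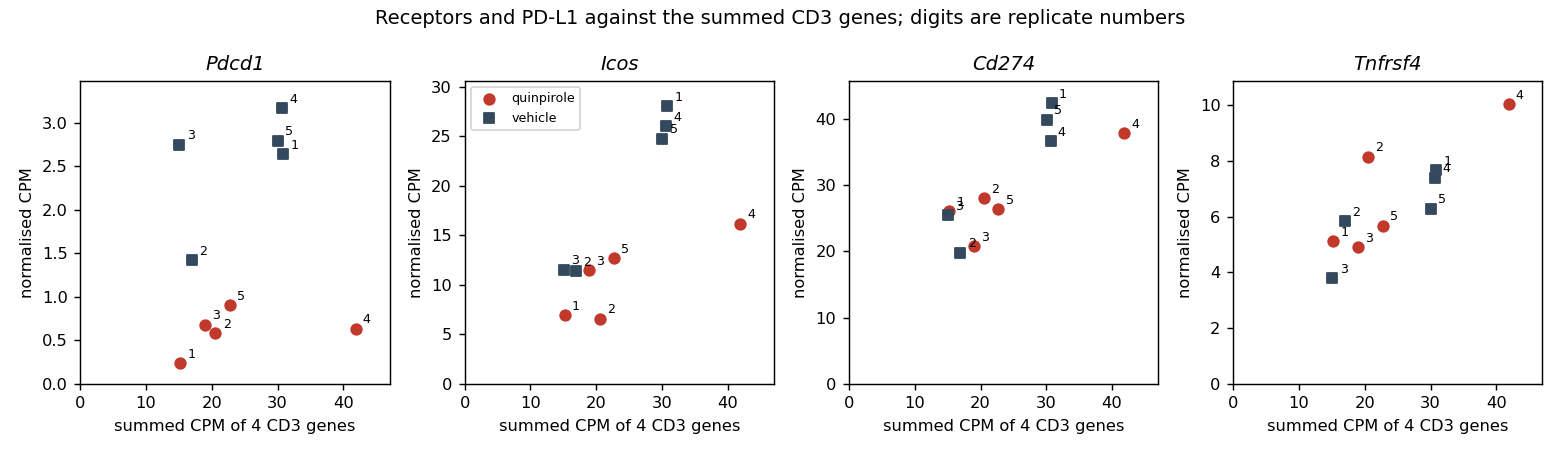
Normalised CPM of Pdcd1, Icos, Cd274 and Tnfrsf4 (vertical axes) against the summed CPM of Cd3d, Cd3e, Cd3g and Cd247 (horizontal axes), both linear, with red circles for quinpirole libraries and dark squares for vehicle libraries. Pdcd1 stays below 1 CPM in all quinpirole libraries, including replicate 4 with the highest CD3 sum, 41.8 CPM, and Icos in vehicle replicates 1, 4 and 5 lies above every quinpirole library.

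The ligands of PD-1 did not pass the test. Cd274 had 26.0, 28.0, 20.7, 37.8 and 26.3 CPM in quinpirole replicates 1 to 5 and 42.4, 19.8, 25.4, 36.6 and 39.8 CPM in vehicle replicates 1 to 5. Vehicle replicates 1 and 5 lay above every quinpirole library and vehicle replicate 2 below them all, and the log2 fold change was -0.20 with a 95% interval of -0.67 to 0.26 (limma adjusted p = 0.760 over all genes tested). Pdcd1lg2 was far lower, with 53 reads over the quinpirole libraries and 64 over the vehicle libraries. It averaged 1.37 ± 0.413 CPM with quinpirole and 1.70 ± 0.693 CPM with vehicle (log2 fold change -0.17, interval -0.63 to 0.29, limma adjusted p = 0.806). The 2 ligand genes lie side by side on the plus strand of chromosome 19, with Pdcd1lg2 starting 22823 bases after the end of Cd274, and over the 10 libraries their levels had a Pearson r of 0.835. Rgmb, which encodes another partner of PD-L2, averaged 23.9 ± 2.85 CPM with quinpirole and 21.1 ± 2.57 CPM with vehicle.

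Of 15 tested genes of the interferon-gamma route to PD-L1, 13 had higher and 2 lower values with quinpirole, with a median log2 fold change of 0.10, and none was called. Over all genes tested the median was -0.0021 and 0.0206% were called. Ifng itself had 6 reads over the quinpirole libraries and 5 over the vehicle libraries, too few to compare. B2m, the most abundant of the list and part of MHC class I, averaged 1294 ± 607 CPM with quinpirole and 739 ± 195 CPM with vehicle (log2 fold change 0.75, limma adjusted p = 0.293). Irf1, a transcription factor that drives Cd274, averaged 32.0 ± 5.88 CPM with quinpirole and 29.7 ± 9.36 CPM with vehicle. One of the lower genes was Cmtm6, whose product in human cells keeps PD-L1 at the cell surface. It averaged 84.0 ± 5.14 CPM with quinpirole and 112 ± 15.7 CPM with vehicle, with no overlap between the groups, and missed the threshold (log2 fold change -0.40, interval -0.62 to -0.19, limma adjusted p = 0.195). Of the genes tested, 0.859% had no overlap in this direction, and Cmtm6 was singled out after its values were seen.

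Among receptors of the CD28 family, Icos stood lowest against its vehicle level after Pdcd1. It had 6.90, 6.55, 11.4, 16.2 and 12.7 CPM in quinpirole replicates 1 to 5 and 28.0, 11.4, 11.5, 26.0 and 24.7 CPM in vehicle replicates 1 to 5. Vehicle replicates 1, 4 and 5 lay above all quinpirole libraries, while vehicle replicates 2 and 3 lay in the middle of them. The quinpirole mean was 52.8% of that of vehicle, and the log2 fold change of -0.83 had an interval of -1.51 to -0.16 but did not pass over all genes (limma adjusted p = 0.330, against 11.4% of genes with an unadjusted p under 0.05). Per 100 CD3 reads, Icos had 45.3, 31.9, 60.4, 38.6 and 55.7 reads in quinpirole replicates 1 to 5 and 91.0, 67.2, 76.5, 84.9 and 82.3 in vehicle replicates 1 to 5, which do not overlap. Pdcd1, whose low values set the list, and Icos were the 2 of the 10 genes for which this was so. Of tested genes, which leave out Lag3 and Tigit, 0.220% showed this in the same direction. With the CD3 covariate the log2 fold change of Icos was -0.69 with a limma adjusted p of 0.0665, in a fit that called 0.681% of genes. Its ligand gene Icosl averaged 21.5 ± 2.90 CPM with quinpirole and 18.1 ± 2.81 CPM with vehicle.

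Ctla4 had 2.85, 1.46, 1.23, 2.67 and 2.84 CPM in quinpirole replicates 1 to 5 and 4.02, 1.28, 1.44, 4.09 and 5.45 CPM in vehicle replicates 1 to 5. Its vehicle libraries split in the same way as those of Icos, with replicates 2 and 3 low, and its log2 fold change of -0.33 had an interval of -1.003 to 0.35 (limma adjusted p = 0.737). Ctla4, Icos and Cd28 are neighbours on the plus strand of chromosome 1, with Ctla4 from 60887000 to 60915832 and Icos from 60977927 to 61000320. Cd28, the receptor with which CTLA-4 competes, averaged 1.43 ± 0.608 CPM with quinpirole and 1.72 ± 0.696 CPM with vehicle. The shared ligand genes Cd80 and Cd86, made by antigen-presenting cells, had log2 fold changes of -0.22 and -0.21, with limma adjusted p of 0.770 and 0.753.

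Of the other inhibitory receptors, Havcr2 had the most reads and Lag3 and Tigit were low. Havcr2, which myeloid cells also express, had 5.59, 5.24, 5.86, 7.38 and 6.59 CPM in quinpirole replicates 1 to 5 and 11.9, 3.84, 5.90, 11.9 and 10.6 CPM in vehicle replicates 1 to 5. The vehicle libraries spread on both sides of the quinpirole ones, the SD being 0.853 CPM with quinpirole and 3.73 CPM with vehicle, and the log2 fold change of -0.37 had an interval of -0.94 to 0.20 (limma adjusted p = 0.632). Lgals9, which encodes the TIM-3 ligand galectin-9, averaged 36.2 ± 4.50 CPM with quinpirole and 26.7 ± 5.79 CPM with vehicle (log2 fold change 0.44, interval 0.11 to 0.78, limma adjusted p = 0.295). Other TIM-3 partners, Ceacam1 and Hmgb1, had log2 fold changes of 0.06 and -0.08.

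Lag3 had 1, 2, 2, 3 and 6 reads in quinpirole replicates 1 to 5 and 7, 8, 3, 4 and 6 reads in vehicle replicates 1 to 5. Its means were 0.368 ± 0.246 CPM with quinpirole and 0.756 ± 0.297 CPM with vehicle, and the exact two-sided permutation p of the difference was 0.0476 unadjusted, where 5 against 5 libraries allow 0.00794 at the least. Tested by limma with no filter, Lag3 had an adjusted p of 0.432. Quinpirole replicate 5 lay above vehicle replicates 3 and 4, and leaving out any of 7 single libraries, quinpirole replicates 1 to 4 and vehicle replicates 1, 2 and 5, took the unadjusted p above 0.05. Cd4, next to Lag3 on the minus strand of chromosome 6, had a log2 fold change of 0.20, and the MHC class II genes H2-Aa and H2-Ab1, whose products LAG-3 binds, each had a log2 fold change of 0.08. Lgals3, which encodes galectin-3, another LAG-3 partner, had one of 0.16.

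Tigit had 4, 3, 1, 5 and 2 reads in quinpirole replicates 1 to 5 and 3, 4, 3, 9 and 11 reads in vehicle replicates 1 to 5. Its means were 0.389 ± 0.195 CPM with quinpirole and 0.813 ± 0.523 CPM with vehicle (exact two-sided permutation p = 0.151 unadjusted, limma adjusted p = 0.529 with no filter). The vehicle mean rested on replicates 4 and 5, the other 3 lying within the quinpirole range. Pvr, the ligand gene of TIGIT, averaged 12.1 ± 2.75 CPM with quinpirole and 12.7 ± 2.87 CPM with vehicle. Pvrl3, the older symbol of the nectin-3 gene Nectin3, had a log2 fold change of -0.22. The rival receptors for PVR, Cd226 and Cd96, had log2 fold changes of 0.09 and -0.34 and were not called. The gene of nectin-2, another ligand, was not analysed here.

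The co-stimulatory receptors of the TNF receptor family went different ways. Tnfrsf9 had 2.97, 2.77, 2.998, 2.80 and 4.52 CPM in quinpirole replicates 1 to 5 and 6.16, 1.57, 3.54, 5.81 and 6.43 CPM in vehicle replicates 1 to 5. Vehicle replicates 1, 4 and 5 were above every quinpirole library and vehicle replicate 2 was below them all, and the log2 fold change of -0.35 had an interval of -0.95 to 0.25 (limma adjusted p = 0.677). Tnfrsf9 overlaps Camta1 on the opposite strand, and it is not known here whether reads were counted by strand. Its ligand gene Tnfsf9 averaged 2.11 ± 0.720 CPM with quinpirole and 1.77 ± 0.869 CPM with vehicle.

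Tnfrsf4 was the 1 of the 8 tested genes with a higher mean under quinpirole. It had 5.11, 8.16, 4.91, 10.0 and 5.68 CPM in quinpirole replicates 1 to 5 and 7.67, 5.84, 3.80, 7.40 and 6.29 CPM in vehicle replicates 1 to 5. Quinpirole replicates 2 and 4 were above all vehicle libraries and the other 3 lay among them (log2 fold change 0.10, interval -0.38 to 0.57, limma adjusted p = 0.905). The sign turned without quinpirole replicate 4 or vehicle replicate 3 and with the hair shaft covariate, at -0.04 in each. Tnfrsf18, which encodes GITR and lies 9551 bases after Tnfrsf4 on chromosome 4, averaged 22.5 ± 3.09 CPM with quinpirole and 17.9 ± 1.80 CPM with vehicle (log2 fold change 0.31, interval 0.06 to 0.56, limma adjusted p = 0.332).

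Over the 7 genes other than Pdcd1 that passed the filter, 6 had lower and 1 higher values with quinpirole, against 50.4% of all tested genes with a value below 0. Their median log2 fold change was -0.33, and 0 of 7 were called by limma, by edgeR or by DESeq2, with 1 of 7, Icos, at an unadjusted p under 0.05 by limma. Of all tested genes, edgeR called 0.0344% and DESeq2 1.51%, and limma with no filter called 0.0353% of all genes. The intervals of the 6 genes other than Icos all contained 0, so the libraries do not tell a moderate fall from none for these genes.

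**Figure D3:**
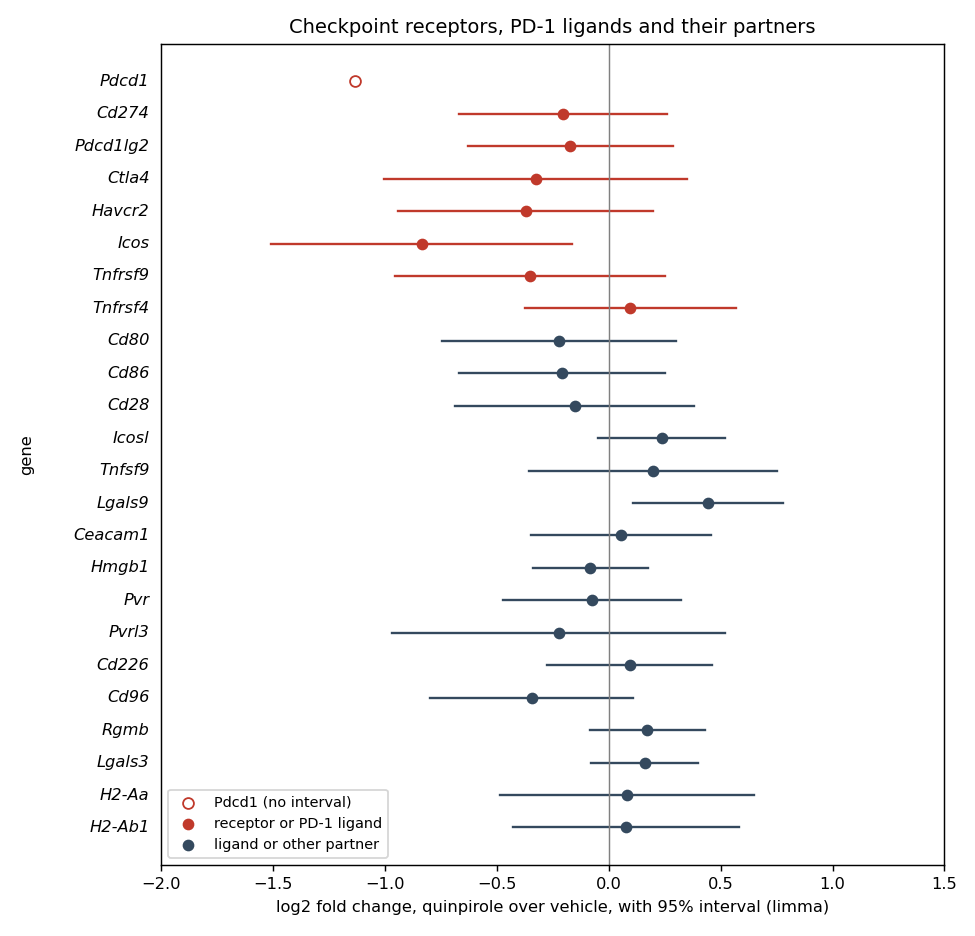
Log2 fold change of quinpirole over vehicle (horizontal axis) for 8 tested receptors and PD-1 ligands (red) and 16 tested ligands and other partners (dark), 1 row per gene, with 95% intervals from limma as lines. Pdcd1, the gene behind the choice, is an open circle at -1.13 with no interval. The interval of Icos, -1.51 to -0.16, lies below 0, and that of Lgals9, 0.11 to 0.78, above it, and neither gene passed after adjustment over all genes.

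Most of the receptors varied together from library to library. Over the 10 libraries the Pearson r of log2 levels was 0.949 between Pdcd1lg2 and Ctla4, 0.923 between Havcr2 and Tnfrsf9, 0.884 between Cd274 and Havcr2, and 0.871 between Havcr2 and Icos. With the group means taken out these were 0.945, 0.911, 0.878 and 0.868. The points share library, depth and tissue makeup, and the values are a description. Within vehicle, replicates 1, 4 and 5 were high and replicates 2 and 3 low for Cd274, Ctla4, Havcr2, Icos and Tnfrsf9. The summed CD3 genes split the same way, and vehicle replicates 2 and 3 also held the most hair shaft RNA of their group. The part of either in these genes was not tested. Pdcd1 did not follow this split, as vehicle replicate 3, with 2.75 CPM, was as high as replicates 1 and 5.

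The levels were also set against the mean log2 level of 14 tested T cell markers over the 10 libraries, with 10 relations computed, 9 of them tested. Cd274 followed the T cell markers most closely (Pearson's r = 0.88, permutation p = 0.00166, adjusted p = 0.0149; Spearman's rho = 0.88, permutation p = 0.00156, adjusted p = 0.0140), and r was 0.87 without vehicle replicates 2 and 3, the libraries farthest from the median. Tnfrsf4 came next (r = 0.82, permutation p = 0.00343, adjusted p = 0.0154; rho = 0.77, permutation p = 0.0122, adjusted p = 0.0548), with r of 0.84 without these libraries. Havcr2 and Ctla4 passed by Pearson's r, at 0.77 and 0.73 (permutation p = 0.0126 and 0.0210, adjusted p = 0.0378 and 0.0472), but not by Spearman's rho, at 0.72 and 0.70 (permutation p = 0.0243 and 0.0307, adjusted p = 0.0692 for each), and their r was 0.68 and 0.58 without the same libraries, on which both relations partly rest. Icos, Pdcd1lg2, Tnfrsf9 and Tigit had r between 0.54 and 0.64 and did not pass (permutation p from 0.0520 to 0.113, adjusted p from 0.0902 to 0.127), with rho from 0.41 to 0.62 (permutation p from 0.0599 to 0.247). Lag3 had r = 0.07 (permutation p = 0.847) and rho = 0.02 (permutation p = 0.973). Pdcd1 had r = 0.20 and rho = 0.16, given with no p. With group means taken out, r was 0.93 for Cd274, 0.83 for Tnfrsf4, 0.85 for Havcr2, 0.77 for Ctla4 and 0.80 for Icos, each with an adjusted permutation p of at most 0.0218, and 0.55 for Pdcd1. Centred values were permuted over all 10 libraries and not within groups, so these p-values are approximate and may be too small. Without vehicle replicates 2 and 3, these r were 0.89 for Cd274, 0.89 for Tnfrsf4, 0.75 for Havcr2, 0.54 for Ctla4 and 0.63 for Icos. Thy1 and Bcl11b, which fibroblasts and keratinocytes also express, made up 69.9% of the summed CPM of these markers, so the mean of log2 levels was used and the CD3 genes are given beside it. The CD3 genes were chosen after their values were seen. Against their mean log2 level, Icos had r = 0.80 (permutation p = 0.007, adjusted p = 0.021). Its rho was 0.72 (permutation p = 0.023, adjusted p = 0.0518). Cd274, Tnfrsf4, Havcr2 and Ctla4 also passed by r, but only Cd274 and Tnfrsf4 passed by rho. Pdcd1lg2, Tnfrsf9, Tigit and Lag3 passed by neither.

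Per kilobase of exon, Cd274 was the most abundant of the 10 genes, at 8.36 ± 2.25 CPM per kb over all libraries (SD, n = 10). Tnfrsf4 at 4.75 ± 1.35 and Icos at 4.53 ± 2.31 CPM per kb came next and did not differ beyond their spread. Their order turned between the groups. Icos had 3.13 ± 1.18 CPM per kb with quinpirole and 5.93 ± 2.39 CPM per kb with vehicle, and Tnfrsf4 4.97 ± 1.64 CPM per kb with quinpirole and 4.54 ± 1.13 CPM per kb with vehicle. Over all libraries Havcr2 had 2.75 ± 1.07 CPM per kb, a step below Icos that was within the SD of Icos. Tnfrsf9 had 1.45 ± 0.616 CPM per kb, below Havcr2 by more than the SD of either, and Ctla4 had 1.17 ± 0.617, within the spread of Tnfrsf9. Pdcd1 at 0.820 ± 0.585, Pdcd1lg2 at 0.782 ± 0.289 and Tigit at 0.654 ± 0.472 CPM per kb could not be ordered by these SD, which hold both groups together. Lag3 was lowest at 0.266 ± 0.156 CPM per kb, within the SD of Tigit. Within the groups, Pdcd1 had 0.315 ± 0.125 CPM per kb with quinpirole and 1.32 ± 0.344 CPM per kb with vehicle. Pdcd1lg2 had 0.696 ± 0.211 CPM per kb with quinpirole and 0.869 ± 0.353 CPM per kb with vehicle. Per kb, Pdcd1lg2 lay above Pdcd1 in each quinpirole library and below it in each vehicle library. This order rests on the Pdcd1 values that set the list and is a description.

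**Figure D4:**
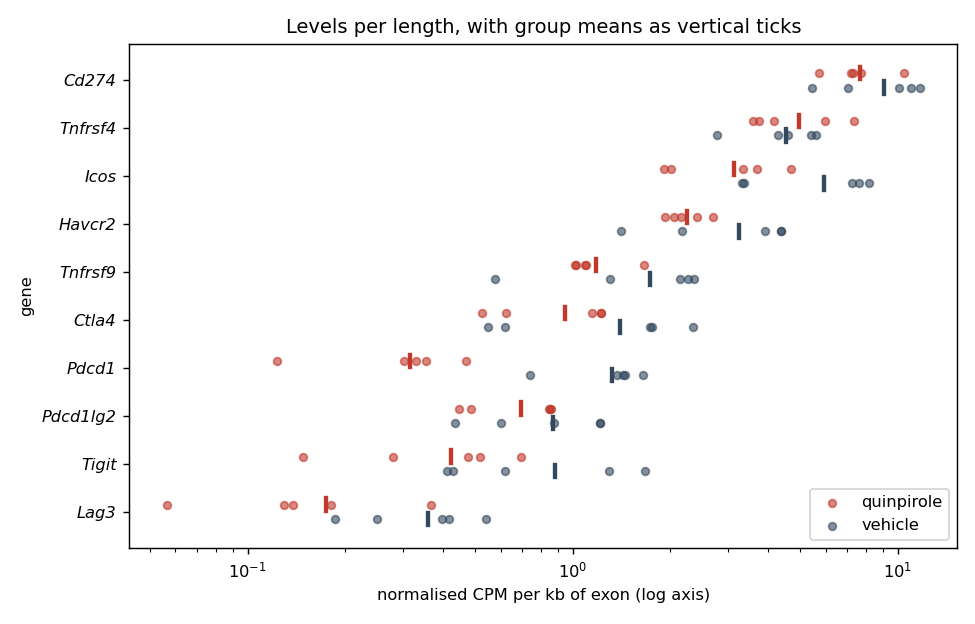
Normalised CPM per kb of exon (horizontal log axis) of the 10 genes, ordered by mean over all libraries, with red points for quinpirole and dark points for vehicle libraries and vertical ticks at group means. Cd274 is at the top at 8.36 CPM per kb and Lag3 at the bottom at 0.266, and Pdcd1 has the widest gap between group means.

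The wider pathway was described by lists. Of 25 other tested checkpoint and co-stimulatory genes, 7 had lower and 18 higher values with quinpirole, with a median log2 fold change of 0.10 and none called. The most abundant were Sirpa, a receptor of myeloid cells, at 114 ± 13.9 CPM with quinpirole and 111 ± 21.2 CPM with vehicle, and the ectonucleotidases Entpd1 and Nt5e, with log2 fold changes of 0.11 and -0.02. Below the filter, Tnfrsf8, which encodes CD30, had 3 reads over the quinpirole libraries and 23 over the vehicle libraries with no overlap. How often genes below the filter show no overlap was not computed. Tnfrsf8 was singled out after its values were seen. Of 16 tested ligands and partners, 7 were lower and 9 higher, with a median of 0.07 and none called. Of 25 tested genes of PD-1 and T cell receptor signalling, 19 were lower and 6 higher, with a median of -0.11 and none called. Ptpn11, which encodes the phosphatase SHP-2 that PD-1 recruits, was the most abundant and averaged 128 ± 18.5 CPM with quinpirole and 155 ± 24.2 CPM with vehicle (log2 fold change -0.27, limma adjusted p = 0.436), and the kinase gene Lck 3.76 ± 1.04 CPM with quinpirole and 4.45 ± 1.22 CPM with vehicle. SHP-2 is made by nearly every cell type of skin. The highest log2 fold changes of the list were those of the NFAT genes Nfatc1, at 0.62 (interval 0.20 to 1.03, limma adjusted p = 0.254), and Nfatc2, at 0.55 (interval 0.18 to 0.91, limma adjusted p = 0.2502). Nfatc1 averaged 52.1 ± 14.0 CPM with quinpirole and 33.3 ± 7.18 CPM with vehicle. Nfatc2 averaged 44.6 ± 5.28 CPM with quinpirole and 30.9 ± 9.12 CPM with vehicle. Both genes were far above Lck, so their values are not a measure of T cells, and which cells of skin made this RNA was not tested. Both were singled out after their values were seen.

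Lists of the cells that could carry these receptors showed no called gene either. The T cell markers had 6 lower and 8 higher of 14 tested, with a median log2 fold change of 0.01 in a range of -0.35 to 0.54. They include Thy1 and Bcl11b, which other skin cells also express, so the median is no measure of T cell number. Regulatory T cell genes other than the receptors had 6 lower and 5 higher of 11, with a median of -0.02, and their defining gene Foxp3 averaged 2.67 ± 0.448 CPM with quinpirole and 3.18 ± 1.52 CPM with vehicle. Il2rb, an interleukin-2 receptor chain of activated T and natural killer cells, averaged 4.85 ± 1.52 CPM with quinpirole and 7.31 ± 3.07 CPM with vehicle (log2 fold change -0.48, limma adjusted p = 0.534). Factors of T cell activation and exhaustion had 10 lower and 11 higher of 21, with a median of 0.0043, and cytotoxic and natural killer genes 4 lower and 2 higher of 6, with a median of -0.05. Gamma-delta T cell genes had 7 lower and 2 higher of 9, with a median of -0.10. None of the receptor constant genes on the list was analysed here. Among other cells, macrophage and monocyte markers had a median of 0.28 over 15 genes, dendritic and Langerhans cell markers 0.22 over 14, neutrophil markers -0.56 over 8, mast cell markers 0.62 over 9, keratinocyte markers 0.17 over 9, B cell markers -0.53 over 2, hair shaft genes -1.60 over 24 and skeletal muscle genes 1.17 over 16. Their part in the values of the receptors was not tested.

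**Figure D5:**
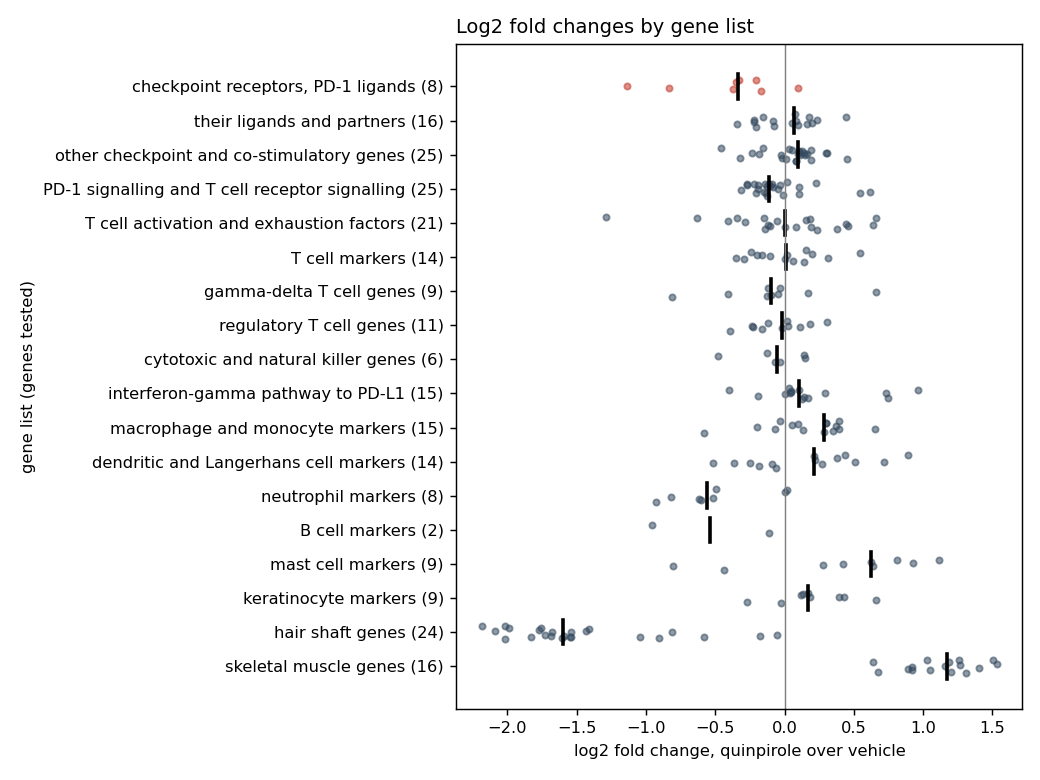
Log2 fold change of quinpirole over vehicle (horizontal axis) of each tested gene, by gene list (vertical axis, number of tested genes in brackets), with black ticks at medians. The 8 receptors and PD-1 ligands (red) run from -1.13 for Pdcd1 to 0.10 for Tnfrsf4, and the T cell markers from -0.35 to 0.54 with a median of 0.01.

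Over the 10 libraries, the 5 named genes whose log2 levels ran most like Pdcd1 among 14547 tested genes were the tetraspanin gene Tspan3 (Pearson's r = 0.958), the cornified envelope genes Sprr2f (0.940) and Sprr2i (0.938), the palmitoyltransferase gene Zdhhc13 (0.921) and Dnajb3 (0.92). Each was lower with quinpirole, so much of the likeness is the group difference itself, and within groups r was 0.821, 0.770, 0.641, 0.595 and 0.709. Tspan3 averaged 49.2 ± 3.89 CPM with quinpirole and 81.5 ± 15.9 CPM with vehicle. Reads may be divided among near-identical Sprr2 genes, so their levels are uncertain. Of the other receptors, Icos was most like Pdcd1, at r = 0.775 and place 201 of the 14547, followed by Havcr2 and Tnfrsf9 at 0.627 each, while Tnfrsf4 had r = -0.08. Within groups the order of these receptors turned, with r of 0.786 for Tnfrsf9, 0.709 for Havcr2 and 0.635 for Icos.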

How the data were processed

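Total RNA of whole skin was depleted of ribosomal RNA and made into directional libraries, per the labels' protocols. Tools listed per the submitters' processing notes are Trimmomatic 0.38, Bowtie2, edgeR and RSEM 1.3.0, on mm10. How genes were annotated, filtered and counted by strand is not stated there. The deposited values are a normalised signal per gene and library. Dividing each library by the worth of 1 read returned whole reads for 100% of values (tolerance 1e-06), and the values equalled CPM on edgeR's TMM effective library sizes within 2.22e-16. No gene had fewer than 10 reads in all.

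Values were transformed as log2 of CPM plus 1, filtered at 1 CPM in at least 5 libraries and tested two-sided in R 4.3.3 with limma 3.58.1, using its mean-variance trend, adjusted by Benjamini-Hochberg over all genes tested and called at 0.05. EdgeR 4.0.16 and DESeq2 1.42.0 were run on recovered reads. Lag3 and Tigit, being below the filter, had an exact permutation test, and relations to T cell markers a permutation test with 100000 resamples. Other genes below the filter had no such test. The same fits were tested on simulated data. The 10 genes and the gene lists were chosen with earlier results of these data known. Genes were named by a rule: the 10, their partners, abundant or called genes of each list, defining T cell genes and the 5 most like Pdcd1. Lck, Irf1, Ifng, Cmtm6, Tnfrsf8, Cd8b1, Nfatc1, Nfatc2, Cd3d, Cd3g, Cd247 and the genes under other observations lie outside it and were named with their values seen. No 2 libraries of one group were alike within sampling noise (lowest chi-square per gene 6.55). Positions and exon lengths are from GENCODE M21 on mm10. Promoters of 8 of the 10 genes were matched by symbol in RefSeq's GRCm38.p6 table. Figures used matplotlib 3.10.9.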

Additional observations from a re-analysis of the deposited data

Results flagged for a closer look

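Of 20 groups of 5 libraries examined, 1 held a library far from the others, where chance gives about 1 in 20. Tnfrsf9 stood at 4.52 CPM in quinpirole replicate 5, while the other 4 quinpirole libraries lay between 2.77 and 2.998 CPM, so that the gap was 0.868 of the group's range, beyond the limit of Dixon's test at 95%. Without that library the log2 fold change of Tnfrsf9 stayed below 0.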

How the results depend on the processing

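The number of genes called among all tested was 3, and became 5 with 0.1 added in place of 1, 6 with no filter, 5 with library totals, 5 with edgeR, 9 with no variance trend, 219 with DESeq2, 14 with the hair shaft covariate, 58 with the T cell covariate and 99 with the CD3 covariate, which was chosen after seeing the data. Leaving out 1 library gave 0 to 10 called genes, the 10 without vehicle replicate 5. Whether the replicate numbers pair the libraries is not known here. Correlations of same-numbered deviations were 0.220, -0.238, 0.194, 0.127 and 0.0951 for numbers 1 to 5, not all over 0.1, which cannot show whether the design was paired. For none of the 5 numbers was the same-numbered library the best match. A fit with the replicate block called 0 genes while 1576 had unadjusted p-values below 0.05. The 7 tested genes other than Pdcd1 gave 0 calls under every alternative run. With 1 library left out, their log2 fold changes moved by over 1.5 times except for Icos (-1.01 to -0.693), from -0.366 to -0.101 for Cd274, -0.297 to -0.0799 for Pdcd1lg2, -0.521 to -0.146 for Ctla4, -0.601 to -0.246 for Havcr2 and -0.612 to -0.229 for Tnfrsf9. The lowest of each of these 5 ranges was without vehicle replicate 2, and the highest was without vehicle replicate 1 for Cd274, Pdcd1lg2 and Havcr2 and without vehicle replicate 5 for Ctla4 and Tnfrsf9. The log2 fold change of Pdcd1 was -1.95 with 0.1 added, -0.43 with 5 added, -2.06 with edgeR and -2.09 with DESeq2, and -1.27 to -1.04 with 1 library left out. That of Tnfrsf4 turned to -0.0437 with the hair shaft covariate and to -0.0403 and -0.0414 without quinpirole replicate 4 or vehicle replicate 3, in a range of -0.0414 to 0.185. The difference of Lag3 ran from -0.490 to -0.292 CPM (exact permutation p from 0.0238 to 0.127) and that of Tigit from -0.534 to -0.244 CPM with 1 library left out.

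For relations to T cell markers, r with 5 added was 0.642 for Ctla4 and 0.703 for Havcr2, which no longer passed, and -0.00539 for Lag3. With group means taken out it was 0.551 for Pdcd1 and 0.798 for Icos. Against the CD3 genes, chosen after seeing the data, r was 0.800 for Icos, and within groups 0.919 for Icos, 0.587 for Pdcd1, 0.679 for Pdcd1lg2 and 0.663 for Tnfrsf9. With 1 library left out, r ran from 0.0211 to 0.439 for Pdcd1, 0.543 to 0.753 for Pdcd1lg2, 0.672 to 0.807 for Ctla4, -0.0671 to 0.470 for Lag3, 0.690 to 0.853 for Havcr2, 0.523 to 0.749 for Icos and 0.436 to 0.818 for Tnfrsf9. Among the gene lists of T cells and of the PD-1 pathway, the median log2 fold change changed sign under at least 1 alternative for all but PD-1 and T cell receptor signalling, which stayed between -0.185 and -0.0480. The cause of these changes was not tested. Depth was low for Lag3 at 1 to 8 reads per library, Tigit at 1 to 11, Pdcd1lg2 at 6 to 19 and Pdcd1 at 2 to 24.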

Other observations

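With group means taken out, the 5 genes whose log2 levels ran most like Pdcd1 over the 10 libraries were Creb3 (r = 0.955), Ncf1 (0.947), Capza1 (0.946), Duoxa1 (0.945) and Anxa2 (0.940), of 14547 compared. None was among the 5 named from the levels themselves. Ncf1, a subunit of the phagocyte NADPH oxidase, averaged 23.1 ± 3.75 CPM with quinpirole and 21.5 ± 3.96 CPM with vehicle. Duoxa1, a maturation factor of the dual oxidase of epithelia, averaged 31.9 ± 4.76 CPM with quinpirole and 42.5 ± 9.12 CPM with vehicle. These were picked from many genes over few libraries, and the values are a description.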
